A study of Mus musculus with 2 samples.

Results

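The genes of protein entry into the endoplasmic reticulum (ER) were followed in single cells of parathyroid glands that had been grown from mouse embryonic stem cells. The set holds 33 genes in 7 groups, chosen by symbol: the signal recognition particle (SRP) and its receptor, the Sec61 channel with partners, the translocon-associated protein (TRAP) complex, signal peptidase, oligosaccharyltransferase and a pair of p24 cargo receptors. All 33 symbols were found, each once, among the 32287 gene entries of both libraries. The hosts were adult Gcm2-/- mice on a BDF1B6 background, which lack a factor that parathyroid development requires, and every gland came from hosts complemented with stem cells carrying a Pth-tdTomato reporter. Replicate 1 pooled 3 mice aged 9 to 12 weeks with 50 to 70% blood chimerism, and replicate 2 pooled 5 mice aged 6 to 13 weeks with 60 to 70%. Males and females were pooled in both. The tissue was dissociated enzymatically (papain, collagenase, trypsin), and flow cytometry gated out doublets ahead of droplet capture. Glands of other genotypes were not analysed here, so cell classes within the glands were compared. The labels do not say whether cells other than parathyroid cells came from the host or from the stem cells.

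Parathyroid hormone is made as a precursor with a signal peptide. SRP binds such a peptide as it leaves the ribosome and hands the ribosome to its receptor on the ER, the chain passes through the Sec61 channel with help from TRAP, signal peptidase removes the signal peptide, and oligosaccharyltransferase attaches N-glycans to acceptor sites on glycoproteins. Cells that secrete much protein, among them endocrine cells, fibroblasts and activated immune cells, depend on this entry route, and p24 proteins then take part in vesicle traffic between the ER and the Golgi.

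Parathyroid barcodes were those in which Pth made up at least 5% of the unique molecular identifiers (UMIs, each counted as 1 captured RNA molecule). There were 660 of 1240 kept barcodes in replicate 1 and 2237 of 3313 in replicate 2, at medians of 37729.5 and 30583 UMIs. Levels are given as CPM, the UMIs of a gene scaled to a common total of all UMIs of the class in its library, for replicate 1 and then replicate 2. Gcm2 stood at 157 and 159 CPM in these barcodes, and Casr, the calcium-sensing receptor, at 349 and 314. In the other classes compared, both stayed under 10 CPM, so the markers fit the label. Barcodes with Pth under 1% were typed by clusters and markers. The classes with at least 20 barcodes in each library were fibroblast (231 and 453 barcodes), endothelial (106 and 270), macrophage (51 and 121) and T cell (36 and 51), with medians from 7589 to 21691 UMIs. Each name rests on those markers alone (fibroblast-like, endothelial-like, macrophage-like, T cell-like), and the ending is left off hereafter. The T cell class was led by Il23r, Cd163l1, Il17a and Trdc. Pth, which these 4 classes should lack, was at 0.828 to 1.25% of its parathyroid level in them. Of all barcodes, 3 sequences occurred in both libraries.

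The UMIs of the 33 genes together reached 5098 and 5636 CPM in parathyroid barcodes. The sums were 4604 and 4783 CPM in T cells, 3846 and 4651 in fibroblasts, 3195 and 3790 in endothelial cells and 3038 and 3366 in macrophages. In each library the parathyroid sum was the highest of the 5 classes. Per barcode, 234 and 180.1 UMIs of the set were counted in parathyroid barcodes and 82.4 and 91.4 in fibroblasts. Pth, Chga and tdTomato took 23.8 and 24.6% of all parathyroid UMIs against 0.189 to 0.302% in the other 4 classes, so that the CPM of every other gene is lowered there. With those 3 genes taken out of the total, the set summed to 6687 and 7472 CPM in parathyroid barcodes and to 4617 and 4797 in T cells.

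**Figure D1:**
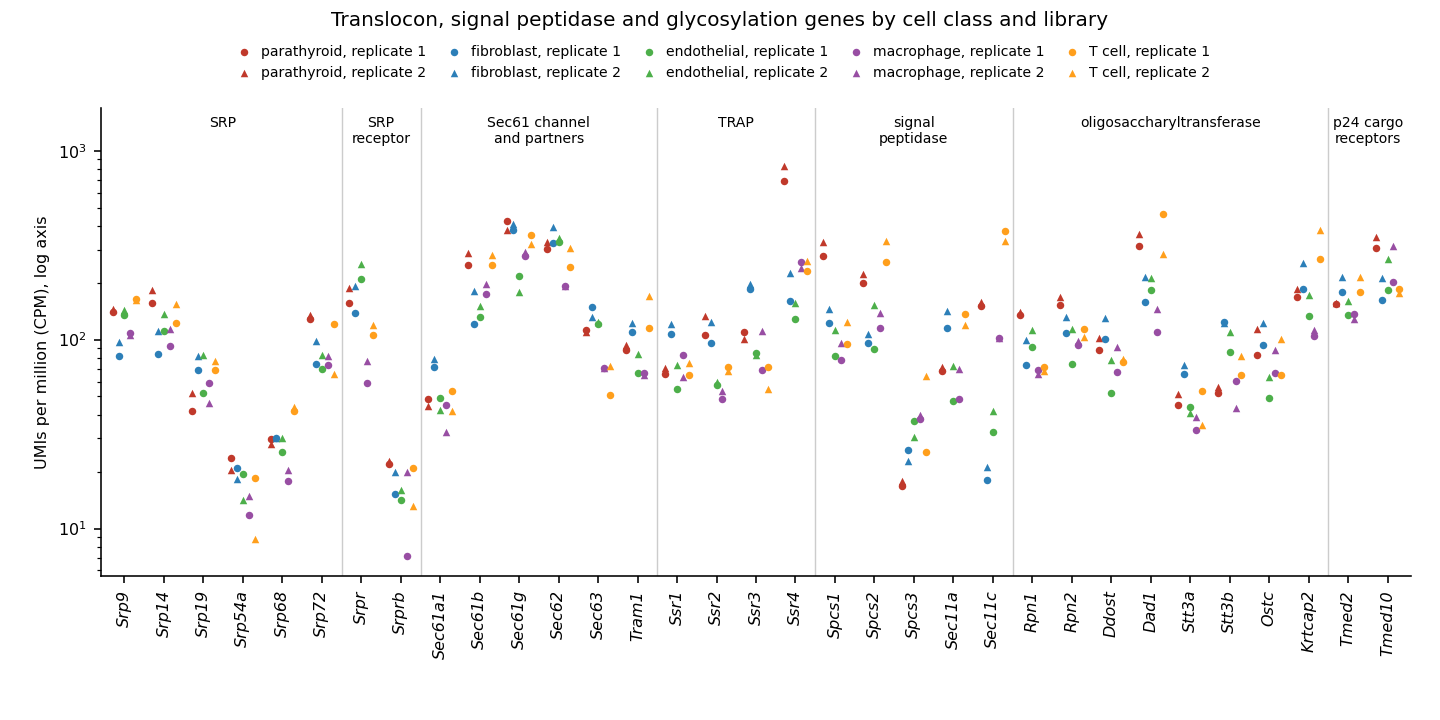
Level of each gene in CPM (log axis) in the parathyroid class and 4 other classes, with replicate 1 as circles and replicate 2 as triangles. Ssr4 stands at 689 and 829 CPM in parathyroid barcodes, above the 8 values of the other classes, while Spcs3 is lowest there.

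UMI counts were summed per class and library and fitted with edgeR, with the library as a block, and log2 fold changes were taken against the unweighted mean of the 4 other classes. Of the 33 genes, 20 were higher in the parathyroid class, 2 were lower (Spcs3 and Stt3b) and 11 were not called at an adjusted p of 0.05. Of all 13466 genes tested, 35.4% were higher and 20.3% lower, and all 33 genes of the set passed the filter on low counts. This background was not matched to the set for count level, which bears on how often a gene is called. The median log2 fold change was 0.46 over the set and 0.17 over all genes. The scaling bears on the count: DESeq2 size factors lowered the median of all genes to 0.05 and left 16 of the set higher and 3 lower, with a median of 0.34. Over all 13466 genes, 4180 were then higher and 3099 lower. Of all calls, 63.6% were higher with TMM scaling in edgeR, 57.4% with DESeq2 size factors and 48.1% in DESeq2's own test. Each replicate is a pool of animals, so a p-value reflects the variation of a class difference from pool to pool.

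By group, 4 of 6 SRP genes were higher and 0 lower, and both genes of the SRP receptor were higher. Of 6 genes of the Sec61 channel and its partners 3 were higher, of 4 TRAP genes 2, of 5 signal peptidase genes 3, of 8 oligosaccharyltransferase genes 5 and of the 2 p24 genes 1. Signal peptidase and oligosaccharyltransferase had 1 lower gene each, and the other groups 0. Over all genes tested 35.4% were higher and 20.3% lower, and groups this small were not tested against these shares. The median log2 fold change was 0.51 for SRP, 0.59 for its receptor, 0.35 for Sec61, 0.59 for TRAP, 0.68 for signal peptidase, 0.41 for oligosaccharyltransferase and 0.43 for p24. Every group had a median above the 0.17 of all genes in this fit. With no count filter the median of all genes was 0.54, and Sec61 (0.46), oligosaccharyltransferase (0.52) and p24 (0.541, against 0.542) lay below it. The summed levels gave another order of classes. TRAP was highest in parathyroid barcodes, SRP was at 519 and 566 CPM there and 537 and 513 in T cells, and the Sec61 group was at 1223 and 1244 CPM there and 1154 and 1323 in fibroblasts, so that the ranges overlapped. Called with a log2 fold change of at least 1 were 3 of the 33 genes, Ssr4, Spcs1 and Sec11c, against 22.9% of all genes tested. Large rises were thus less frequent in the set than over all genes.

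**Figure D2:**
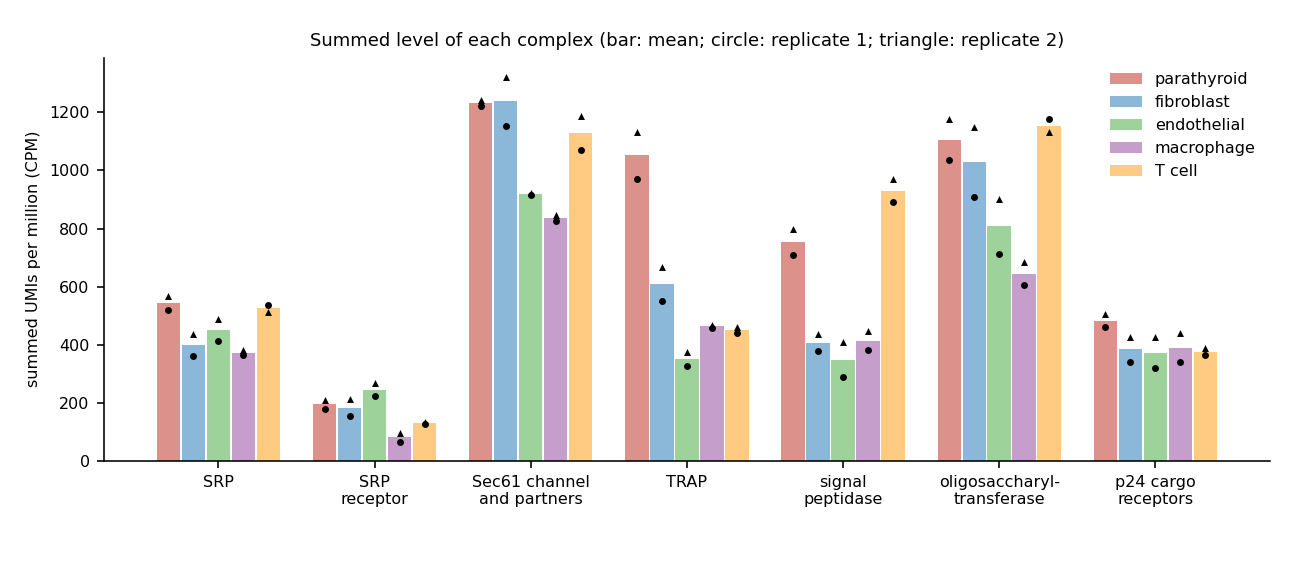
Summed CPM of each group of genes by class, with bars for the mean of 2 libraries and points for each library. The TRAP bar of the parathyroid class (971 and 1134 CPM) stands above the other 4 classes, and the signal peptidase bar of the T cell class (891 and 971) stands above that of the parathyroid class (709.6 and 797.5).

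TRAP binds next to the Sec61 channel and helps open it for certain signal peptides. Its 4 genes summed to 971 and 1134 CPM in parathyroid barcodes, and to 549.9 and 667 in fibroblasts, the next highest class. The rise lay mainly in Ssr4 (ENSMUSG00000002014, chromosome X, 73787028 to 73790830, plus strand), which encodes the delta subunit. Ssr4 was at 689 and 829 CPM in parathyroid barcodes, 257 and 240.4 in macrophages, 231 and 262 in T cells, 161 and 225 in fibroblasts and 129 and 157 in endothelial cells. Both parathyroid values lay far above all 8 others, which ranged from 129 to 262. The log2 fold change was 2.05 (SE 0.13, adjusted p = 1.95e-07), the largest of the 33 genes. Ssr2, the beta subunit, stood at 106 and 133 CPM against 48.6 to 124 over the other classes and was also higher, by 0.93 (SE 0.13, adjusted p = 8.91e-05). Against fibroblasts alone (96.1 and 124 CPM) Ssr2 was not called, at 0.20 (SE 0.16, adjusted p = 0.322). Ssr1, the alpha subunit, and Ssr3, the gamma subunit, were not called against the mean, at -0.04 (SE 0.15, adjusted p = 0.887) and 0.26 (SE 0.17, adjusted p = 0.224). Both were lower in parathyroid barcodes than in fibroblasts: Ssr1 with 65.5 and 70.6 against 107 and 121 CPM, and Ssr3 with 110.4 and 101 against 186 and 197. The edgeR differences from fibroblasts were -0.66 (SE 0.18, adjusted p = 0.00681) for Ssr1 and -0.77 (SE 0.20, adjusted p = 0.00636) for Ssr3. Beside fibroblasts, the 4 TRAP genes therefore lay on both sides: 1 higher, 2 lower and 1 not called.

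Signal peptidase cuts the signal peptide from the entering chain. Its accessory subunit gene Spcs1 (ENSMUSG00000021917, chromosome 14, 30999826 to 31001672, minus strand) was at 276 and 327 CPM in parathyroid barcodes, 122 and 145 in fibroblasts, 94.9 and 123 in T cells, 82.0 and 112 in endothelial cells and 78.2 and 95.8 in macrophages. Its parathyroid values lay above those of every other class, with a log2 fold change of 1.67 (SE 0.12, adjusted p = 4.51e-07). On the opposite strand Glt8d1 overlaps Spcs1, at 36.0 and 45.4 CPM. Spcs2, a further accessory subunit, was at 198 and 223 CPM and was higher than the mean, at 0.68 (SE 0.14, adjusted p = 0.00151), but T cells were higher still, at 259 and 332. The difference of Spcs2 from T cells was not called, at -0.11 (SE 0.20, adjusted p = 0.679). Spcs3 (ENSMUSG00000054408, chromosome 8, 54520433 to 54529998, minus strand), the accessory subunit needed for activity, went the other way. It was at 16.8 and 17.9 CPM in parathyroid barcodes, 26.1 and 22.8 in fibroblasts, 37.0 and 30.6 in endothelial cells, 37.9 and 39.7 in macrophages and 25.4 and 63.8 in T cells. The parathyroid values were the lowest in both libraries, and the T cell libraries differed by more than the other classes did. Spcs3 was lower by edgeR against the mean, at -0.84 (SE 0.19, adjusted p = 0.00282), against macrophages, at -1.26 (SE 0.26, adjusted p = 0.00158), against T cells, at -1.003 (SE 0.34, adjusted p = 0.0297), and against endothelial cells, at -0.69 (SE 0.26, adjusted p = 0.0405). Against fibroblasts Spcs3 was not called, at -0.40 (SE 0.22, adjusted p = 0.137).

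The enzyme has alternative catalytic subunits, Sec11a and Sec11c. Sec11c (ENSMUSG00000024516) was at 151 and 159 CPM in parathyroid barcodes, 18.0 and 21.2 in fibroblasts, 32.6 and 41.9 in endothelial cells, 102 and 102 in macrophages and 375 and 332 in T cells. No pair of these classes overlapped across libraries. By edgeR the log2 difference of the parathyroid class was 3.05 (SE 0.19, adjusted p = 1.19e-07) from fibroblasts, the largest of the set in the comparisons of the parathyroid class with another class, 2.28 (SE 0.20, adjusted p = 2.12e-06) from endothelial cells and 0.51 (SE 0.18, adjusted p = 0.0335) from macrophages. Against T cells Sec11c was lower, at -0.83 (SE 0.18, adjusted p = 0.00327), so that T cells led in both libraries. Sec11a was at 68.3 and 71.3 CPM against 115 and 141 in fibroblasts, a difference of -0.79 (SE 0.19, adjusted p = 0.00332), and it was not called against the mean, at -0.17 (SE 0.15, adjusted p = 0.384). On the same strand Nmb overlaps Sec11a, at 0.561 and 0.713 CPM.

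The share of Sec11c in the UMIs of the pair was 68.8% (95% interval 67.7 to 69.9, 6636 UMIs) in replicate 1 and 69.0% (68.3 to 69.7, 16436 UMIs) in replicate 2 in parathyroid barcodes. In fibroblasts it was 13.5% (95% interval 11.0 to 16.4, 659 UMIs) in replicate 1 and 13.1% (11.4 to 14.9, 1446 UMIs) in replicate 2. The mean difference between these classes was 55.6 percentage points, and within each class the libraries were closer than 1 point. Endothelial cells had 40.7% (30.5 to 51.5) and 36.8% (30.7 to 43.2), macrophages 67.7% (58.8 to 75.7) and 59.2% (53.9 to 64.5) and T cells 73.3% (67.0 to 79.0) and 73.7% (67.1 to 79.5). The parathyroid share thus lay within the macrophage interval of replicate 1 and above that of replicate 2, within both T cell intervals, and far above that of fibroblasts. With classes from the marker gate the mean T cell share was 67.6% and the parathyroid share 68.9%, so the order of these classes was not settled. The intervals are exact binomial ones and cover counting error only, and the shares were not tested further. A share of 3′ UMIs compares classes for 1 pair of genes and does not measure protein.

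**Figure D3:**
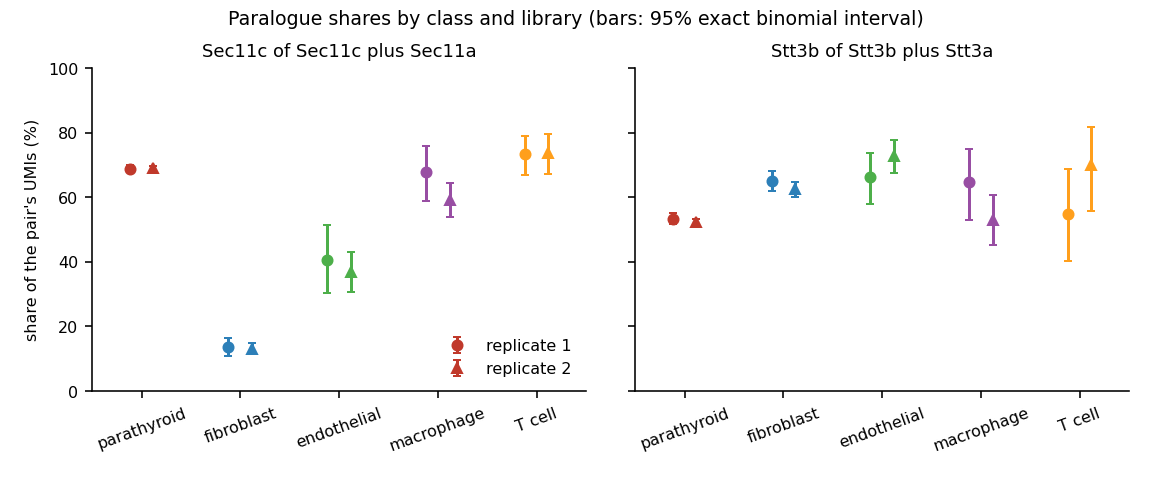
Share of Sec11c in the UMIs of Sec11c and Sec11a (left) and of Stt3b in those of Stt3b and Stt3a (right), by class and library, with 95% exact binomial intervals. The Sec11c share is 68.8 and 69.0% in parathyroid barcodes and 13.5 and 13.1% in fibroblasts, and the Stt3b share is 53.4 and 52.2% against 65.1 and 62.5%.

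Oligosaccharyltransferase transfers a preassembled glycan to asparagines. Rpn1, Rpn2, Dad1 and Ddost, subunits common to both of its forms, were each higher against the mean. Rpn1 (ENSMUSG00000030062, chromosome 6, 88084482 to 88105304, plus strand), ribophorin I, was at 134 and 139.9 CPM in parathyroid barcodes, 91.6 and 113 in endothelial cells, 73.1 and 99.6 in fibroblasts, 71.7 and 68.2 in T cells and 68.8 and 65.6 in macrophages. The parathyroid values lay above all others, with a log2 fold change of 0.93 (SE 0.14, adjusted p = 0.00014). Rpn2 (ENSMUSG00000027642, chromosome 2, 157279017 to 157326319, plus strand), ribophorin II, was at 153 and 167 CPM in parathyroid barcodes, 109 and 132 in fibroblasts, 113 and 103 in T cells, 93.6 and 97.8 in macrophages and 74.0 and 114 in endothelial cells, with 0.78 (SE 0.14, adjusted p = 0.00067). Its values, too, did not overlap with another class. Dad1, a small shared subunit, was at 314 and 361 CPM, and the other classes ranged over 110.2 to 465. Dad1 was higher against the mean, at 0.86 (SE 0.19, adjusted p = 0.00218), and the T cell values (465 and 284) lay on both sides of the parathyroid ones. Ddost, the OST48 subunit, was at 87.6 and 102 CPM against 52.0 to 131, a difference of 0.35 (SE 0.13, adjusted p = 0.0399) that was lost with DESeq2 size factors, where its adjusted p was 0.162.

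The catalytic subunits were not higher. Stt3a, of the translocon-bound complex, was at 45.3 and 51.3 CPM and was not called against the mean, at 0.20 (SE 0.14, adjusted p = 0.274). Stt3b (ENSMUSG00000032437, chromosome 9, 115242581 to 115310421, minus strand), of the complex that also modifies chains after translocation, was at 51.9 and 56.1 CPM in parathyroid barcodes, 123 and 123 in fibroblasts, 86.4 and 109.8 in endothelial cells, 64.8 and 81.4 in T cells and 60.5 and 43.7 in macrophages. The parathyroid values lay under those of fibroblasts, endothelial cells and T cells and overlapped with macrophages. Stt3b was lower by edgeR against the mean, at -0.45 (SE 0.15, adjusted p = 0.0266), and against fibroblasts, at -1.11 (SE 0.18, adjusted p = 0.000242). Its call against the mean was lost without the count filter, at an adjusted p of 0.143, and with other ways of forming the classes, at 0.0696 with a marker gate and 0.068 at a clustering resolution of 2. The Stt3b share of the pair was 53.4% (51.6 to 55.2) and 52.2% (51.1 to 53.4) in parathyroid barcodes against 65.1% (62.0 to 68.2) and 62.5% (60.2 to 64.8) in fibroblasts and 66.2% (58.0 to 73.8) and 72.8% (67.6 to 77.6) in endothelial cells. In macrophages it was 64.6% and 53.0% and in T cells 54.9% and 69.8%. The macrophage values reached the parathyroid share, and the T cell values lay above it, with intervals of 40.3 to 68.9% in replicate 1, which holds it, and 55.7 to 81.7% in replicate 2, which does not. Subunits of the STT3A complex differed from each other: Ostc was at 82.9 and 114 CPM and higher against the mean, at 0.46 (SE 0.12, adjusted p = 0.0071), and Krtcap2 was at 167 and 185 CPM and not called, at 0.09 (SE 0.14, adjusted p = 0.667). Krtcap2 was lower than in T cells (268 and 379 CPM), at -0.49 (SE 0.18, adjusted p = 0.0459), and higher than in macrophages (104 and 113 CPM), at 0.61 (SE 0.18, adjusted p = 0.0144).

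SRP is built on an RNA, which is not among the genes followed here, and 6 proteins. Srp14 (ENSMUSG00000009549, chromosome 2, 118475850 to 118479711, minus strand), of the Alu domain that slows elongation, was at 156 and 184 CPM in parathyroid barcodes, 123 and 154 in T cells, 111 and 136 in endothelial cells, 92.5 and 114 in macrophages and 84.0 and 112 in fibroblasts. Within each library the parathyroid value was the highest, and the log2 fold change was 0.72 (SE 0.12, adjusted p = 0.00036). Srp72 (ENSMUSG00000036323, chromosome 5, 76974683 to 76999937, plus strand), which binds the RNA together with Srp68, was at 128 and 136 CPM in parathyroid barcodes, 120.3 and 66.0 in T cells, 73.9 and 98.6 in fibroblasts, 73.5 and 81.4 in macrophages and 69.6 and 82.4 in endothelial cells, with 0.81 (SE 0.17, adjusted p = 0.00183). Its partner Srp68 was not called in any comparison of classes, at 29.7 and 28.0 CPM against 17.8 to 44.0. Srp9, which pairs with Srp14, was at 139.7 and 146 CPM against 81.8 to 164, and its difference of 0.38 (SE 0.13, adjusted p = 0.0244) was lost with DESeq2 size factors, at an adjusted p of 0.119. Srp54a, the GTPase that holds the signal peptide, was at 23.7 and 20.4 CPM against 8.80 to 20.8, with 0.63 (SE 0.18, adjusted p = 0.0104). It has near-identical copies in the mouse, of which Srp54c was at 4.29 and 3.61 CPM, so its counts are uncertain. Srp19, needed for assembly, was the SRP gene that was lower in parathyroid barcodes than in fibroblasts, at 42.1 and 52.3 against 68.7 and 81.7 CPM and -0.59 (SE 0.19, adjusted p = 0.0167). Against the mean it was not called with edgeR, at -0.34 (SE 0.16, adjusted p = 0.0928), and was called lower with DESeq2 size factors, at -0.46 and an adjusted p of 0.0303.

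The SRP receptor has an alpha subunit, Srpr, and a beta subunit, Srprb, and both were higher against the mean. Srpr was at 157 and 188 CPM in parathyroid barcodes, 209 and 251 in endothelial cells, 138 and 193 in fibroblasts, 106 and 119 in T cells and 59.3 and 77.5 in macrophages. Endothelial cells led, and the difference from the mean, 0.55 (SE 0.13, adjusted p = 0.00377), was accompanied by calls against T cells and macrophages alone. Against fibroblasts and endothelial cells Srpr was not called, at 0.15 (SE 0.17, adjusted p = 0.461) and -0.17 (SE 0.17, adjusted p = 0.426). Srprb was at 22.0 and 22.8 CPM against 7.11 to 20.8, and its difference of 0.64 (SE 0.21, adjusted p = 0.0218) was lost with DESeq2 size factors, at an adjusted p of 0.0527.

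In the Sec61 channel the small subunits were called higher and the pore subunit was not called. Sec61b was at 248 and 289 CPM in parathyroid barcodes against 120.4 to 279.5 over the other classes, with 0.73 (SE 0.14, adjusted p = 0.000791), and T cells (249.9 and 279.5) overlapped with it and were not called, at 0.39 (SE 0.19, adjusted p = 0.125). Sec61g was at 424 and 380.0 CPM against 179 to 412, with 0.60 (SE 0.14, adjusted p = 0.0028), and fibroblasts (379 and 412) overlapped with it. Sec61a1, which forms the pore, was at 48.6 and 44.7 CPM and was not called against the mean, at 0.06 (SE 0.14, adjusted p = 0.827). It was lower than in fibroblasts (71.3 and 79.0 CPM), at -0.62 (SE 0.17, adjusted p = 0.00712). Of the partners, Sec63, a J-domain protein that works with the ER chaperone BiP, was at 112 and 109 CPM against 50.9 to 149, and its difference of 0.40 (SE 0.14, adjusted p = 0.0268) was lost with DESeq2 size factors, at an adjusted p of 0.121. Sec62, its partner in import after translation, was at 303 and 327 CPM and was not called, at 0.31 (SE 0.13, adjusted p = 0.0701), though it was called under 5 of the other settings, at up to 0.52 with a clustering resolution of 2 (adjusted p = 0.00606). Tram1, which contacts entering chains, was at 88.2 and 93.4 CPM against 65.1 to 169 and was not called, at 0.09 (SE 0.14, adjusted p = 0.662).

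Of the p24 cargo receptors, Tmed10 was at 304 and 351 CPM in parathyroid barcodes, 203 and 312 in macrophages, 182 and 266 in endothelial cells, 163 and 211 in fibroblasts and 185 and 176 in T cells. It was higher against the mean, at 0.80 (SE 0.15, adjusted p = 0.000698), and macrophages, which overlapped with it, were the class from which it was not called, at 0.27 (SE 0.20, adjusted p = 0.268). Tmed2, with which Tmed10 forms heteromers, was at 155 and 155 CPM against 128 to 215 and was not called in any comparison of classes.

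The set was also compared with each class in turn, with the same parathyroid sums in all 4 comparisons. Against endothelial cells 20 of 33 genes were higher and 2 lower (all genes 29.5% and 25.9%), with a median log2 difference of 0.67 against 0.16 over all genes. Against macrophages 14 were higher and 1 lower (all genes 30.1% and 28.2%), with 0.48 against 0.14. With no count filter that order turned, to 0.65 against 0.74. Without the library block 9 of the set were higher than in macrophages, against 3796 of 13466 over all genes, a share near the background. Against T cells 16 were higher and 3 lower (all genes 28.4% and 17.6%). The medians of 0.58 and 0.52 lay close together and were 0.62 and 1.12 with no count filter. With DESeq2 size factors 10 of the set were higher than in T cells, against 3318 of 13466 over all genes. Against fibroblasts 12 were higher and 7 lower (all genes 30.6% and 30.1%), and the medians were 0.10 and 0.07. Beside fibroblasts, then, the counts stood near the background, and the median of the set turned to -0.03 with DESeq2 size factors, where that of all genes was -0.06. The 7 genes lower than in fibroblasts were Srp19, Sec61a1, Ssr1, Ssr3, Sec11a, Stt3a and Stt3b.

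Higher against each of the 4 classes were 6 of the 33 genes: Srp14, Srp72, Ssr4, Spcs1, Rpn1 and Rpn2. Of all 13466 genes, 12.2% met the same rule. With DESeq2 size factors the highest adjusted p over the 4 classes became 0.0606 for Srp72 and 0.0998 for Rpn2, which left 4. Without the library block the calls of Srp14, Srp72 and Rpn2 were lost in at least 1 pair (0.0577, 0.0562 and 0.0940) and 3 were left: Ssr4, Spcs1 and Rpn1. Higher against some classes and lower against others were Ssr3, Sec11c and Krtcap2. By mean CPM the parathyroid class was the highest for 12 genes, fibroblasts for 12, T cells for 8 and endothelial cells for 1 (Srpr). Neither this order nor the mixed calls were counted over all genes, so they have no background to be set against. Pth, Chga and tdTomato also lower the parathyroid CPM in this order.

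**Figure D4:**
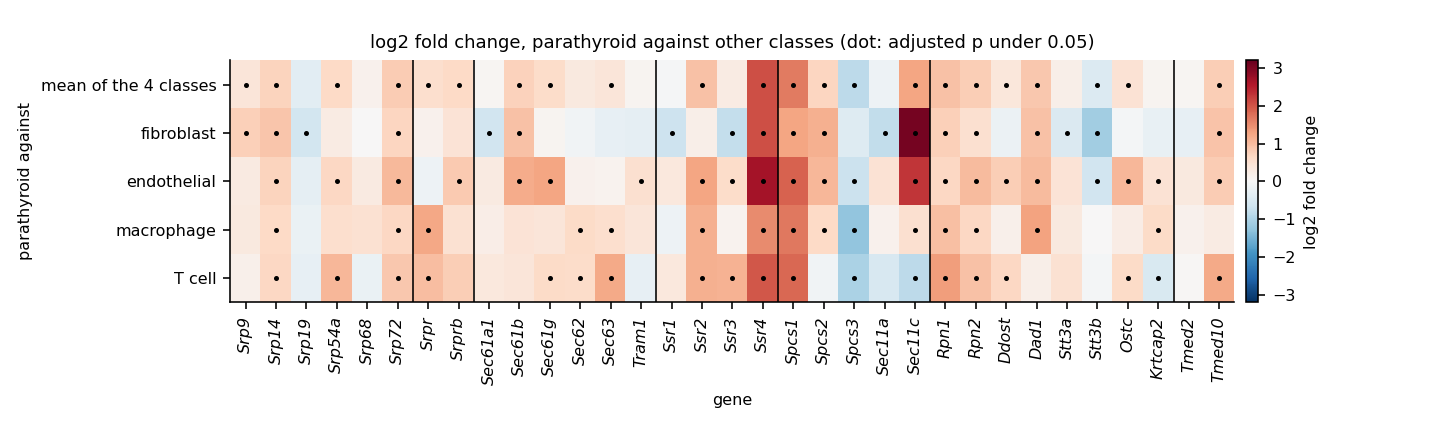
Log2 fold change of each gene in the parathyroid class against the mean of the 4 other classes and against each of them, as colour, with a dot where the adjusted p is under 0.05. Ssr4 and Spcs1 carry a dot in every row, and Sec11c runs from 3.05 against fibroblasts to -0.83 against T cells.

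RefSeq promoters (GRCm38.p6) were at hand for 24 of the 33 genes, and for the 6 genes higher against every class the 100 bases before the outermost annotated start are printed to show what their starts share. Letters read 5′ to 3′ on the gene's strand, and capitals mark a CCAAT box, the site of the factor NF-Y. The windows lie at chr2:118479712-118479811, minus strand for Srp14, chr5:76974583-76974682, plus strand for Srp72, chrX:73786923-73787022, plus strand for Ssr4, chr14:31001673-31001772, minus strand for Spcs1, chr6:88084373-88084472, plus strand for Rpn1 and chr2:157278917-157279016, plus strand for Rpn2.
Ssr4: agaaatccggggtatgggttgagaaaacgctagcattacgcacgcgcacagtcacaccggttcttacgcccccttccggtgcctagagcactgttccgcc
Spcs1: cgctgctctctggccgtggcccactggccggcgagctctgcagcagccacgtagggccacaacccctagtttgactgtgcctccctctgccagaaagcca
Srp14: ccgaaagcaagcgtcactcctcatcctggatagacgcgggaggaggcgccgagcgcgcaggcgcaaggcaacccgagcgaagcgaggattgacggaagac
Srp72: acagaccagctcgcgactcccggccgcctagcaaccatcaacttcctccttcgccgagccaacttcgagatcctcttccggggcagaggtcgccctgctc
Rpn1: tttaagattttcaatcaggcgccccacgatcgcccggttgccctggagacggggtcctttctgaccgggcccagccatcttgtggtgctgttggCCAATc
Rpn2: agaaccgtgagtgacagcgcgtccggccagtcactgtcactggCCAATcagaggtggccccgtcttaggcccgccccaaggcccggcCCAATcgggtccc
The CCAAT letters were found 1 time in the Rpn1 window and 2 times in the Rpn2 window, on the gene's strand, and on neither strand in the other 4. Over all 32851 promoters, 18.9% held CCAAT on either strand in the 100 bases before the RefSeq start. The printed windows precede the outermost start instead, and for Rpn2 these starts differ. Its matches begin 138 and 94 bases before the RefSeq start, so only the second lies in the span used for all promoters. The GC content of the 6 windows ran from 58 to 68%, against a median of 55% over all promoters. In the longer windows of 250 bases before to 50 after the start, CCAAT was found for 15 of the 24 genes (62.5%), against 41.1% of all genes. The ER stress response element ERSE, searched as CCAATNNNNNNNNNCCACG on both strands, was found in 0 of the 24 (0.137% of all genes). The related ERSE-II, searched as ATTGGNCCACG on both strands, was found for Krtcap2 (0.0444% of all genes), 17 to 27 bases past the start. The core TGACGTGG of the unfolded protein response element was found in 0 of the 24 (0.714%). ERSE includes a CCAAT box, and ERSE-II holds one on the other strand. These matches describe letters in these windows and show no binding.

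Smaller groups were too few for the fit and are given as values. In CPM the summed set stood at 3561 and 3855 in group 2 innate lymphoid-like cells (13 and 35 barcodes), 3911 and 4025 in natural killer-like cells (24 and 7), 3260 and 3680 in pericyte- or smooth muscle-like cells (10 and 22) and 1444 and 1882 in neutrophil-like cells (21 and 16). Dendritic-like cells (11 and 5) had 2480 and 2431, monocyte-like cells (10 and 7) 4004 and 4600 and lymphatic endothelial-like cells (3 and 5) 5437 and 4403. The neutrophil-like barcodes were the lowest of all groups and the lymphatic ones, of few barcodes, reached the parathyroid sum in replicate 1. An unnamed cluster led by Igkc and Cd209a (44 and 54 barcodes) had 3793 and 4307 CPM and a Sec11c share of 72.3% and 77.9%. Barcodes with Pth from 1 to under 5% (14 and 22) had 2467 and 3313 CPM. A cluster with parathyroid markers but Pth under 1% (6 and 8 barcodes, median 4641.5 UMIs) had 2168 and 2456 CPM, below the parathyroid class in both libraries.

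Between the replicates the parathyroid levels of the set were close. The log2 ratio of replicate 2 to replicate 1 had a median of 0.11 over the set, from -0.22 to 0.46, and of 0.05 over 2840 genes with at least 50 CPM, and 6 of the 33 genes were lower in replicate 2. Variation over barcodes was examined after each was thinned to 15000 UMIs, which kept 616 and 2140 barcodes and left out 44 and 97. The variance over the mean had a median of 1.09 and 1.07 over the set, against 1.11 and 1.09 over all genes with a mean of at least 0.2 UMIs, where pure counting gives 1. Ssr4 had the largest ratio of the set, at 2.55 and 2.71, where the next gene reached 1.29 and 1.33. It also had the highest mean, at 12.4 and 15.0 UMIs, with Sec61g next at 7.50 and 6.76. The ratio can grow with the mean and was not matched for it, so it does not show that Ssr4 varies more than other genes. A barcode held a median of 12 and 14 Ssr4 UMIs, with a range from 4.75 to 23 and from 6 to 26 between the 5th and 95th percentiles, and 0 barcodes in either library were without one.

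Within the parathyroid class the set was then followed over the Pth share of the barcode. Barcodes were put in bins of 5 to 10% (34 and 55 barcodes), 10 to 15% (386 and 794), 15 to 20% (215 and 1216) and at least 20% (25 and 172), and Pth was left out of the counts so that it did not lower the other levels. From the lowest to the highest bin the summed set stood at 4920, 5808, 6311 and 6463 CPM in replicate 1 and 5624, 6389, 6899 and 7191 in replicate 2. It rose at every step in both libraries. Across single barcodes the Spearman correlation of the set's share with the Pth share was 0.441 and 0.353 (660 and 2237 barcodes), and 0.344 and 0.298 after thinning. Barcodes of 1 library share depth and free RNA, so these are descriptions. These levels bear on the 5% limit. Just outside it, at 2 to 5% Pth, the sum was 2943 (5 barcodes) and 3506 CPM (12), and just inside, at 5 to 8%, it was 4695 (8) and 4843 (10).

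By edgeR, 19 of the 33 genes rose with the Pth share and 1 fell (Sec63), against 12.1% and 11% of the 13407 genes tested. Those genes were not matched to the set for count level, which bears on how often a gene is called. The median log2 change per doubling of the Pth share was 0.32 over the set and -0.03 over all genes. Without TMM scaling the median of all genes was -0.16, and 15 of the set rose and 3 fell (Sec63, Spcs3 and Stt3b). Over all genes 890 of 13407 then rose and 2241 fell, so that 28.4% of the calls were rises, against 52.3% with TMM. The p-values measure the scatter of 8 bins, 4 from each library, around a common slope. Sec61b had the steepest slope and ran 192, 273, 328 and 386 CPM in replicate 1 and 262, 315, 359 and 412 in replicate 2, with 0.74 (SE 0.07, adjusted p = 0.000121), and Sec61g rose by 0.65 (SE 0.06, adjusted p = 0.000117). Each step of Sec61b was upward in both libraries. Ssr2 rose by 0.71 (SE 0.08, adjusted p = 0.000155) and Ssr4 by 0.46 (SE 0.08, adjusted p = 0.00161), and Ssr4 ran 649.9, 787, 857 and 787 and 702, 929.7, 1034 and 1001 CPM, so that it was lower in the last bin than in the one before. Dad1 ran 286, 349.9, 402 and 470.4 CPM and 318, 395, 450.1 and 492, with 0.64 (SE 0.06, adjusted p = 0.000117). Other oligosaccharyltransferase genes that rose were Ostc (0.60), Krtcap2 (0.54), Ddost (0.48) and Rpn2 (0.37), whereas Rpn1, higher against every class, was not called here, at 0.17 (SE 0.09, adjusted p = 0.217).

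In signal peptidase 4 of 5 genes rose, where 12.1% of all genes tested did. Spcs1, Sec11a and Sec11c have transcripts under 1500 bases, and 45.7% of all such genes rose. Sec11c ran 133, 168, 197 and 187 and 134, 177, 196 and 212 CPM over the bins, a slope of 0.61 (SE 0.08, adjusted p = 0.000321). Spcs2 rose by 0.60 (SE 0.08, adjusted p = 0.00051), Spcs1 by 0.51 (SE 0.06, adjusted p = 0.000297) and Sec11a by 0.32 (SE 0.09, adjusted p = 0.0182), and Spcs3 was not called, at -0.37 (SE 0.14, adjusted p = 0.0962). Of the SRP genes, Srp14 (0.57), Srp9 (0.41), Srp19 (0.42) and Srp72 (0.28) rose, and Srp54a at 0.45 (SE 0.18, adjusted p = 0.0897) and Srp68 at 0.17 (SE 0.14, adjusted p = 0.755) were not called. Neither receptor subunit was called, with 0.19 (SE 0.08, adjusted p = 0.111) for Srpr and 0.11 (SE 0.15, adjusted p = 0.696) for Srprb. Sec62 rose by 0.31 (SE 0.06, adjusted p = 0.00428) while its partner Sec63 fell, through 138, 136, 119.8 and 102 CPM in replicate 1 and 155, 138, 125 and 110.5 in replicate 2, with -0.24 (SE 0.07, adjusted p = 0.0326). Tmed10 rose by 0.30 (SE 0.07, adjusted p = 0.00598). Stt3b, at -0.31 (SE 0.12, adjusted p = 0.0949), was not called, with 51.3, 64.6, 53.3 and 61.0 and 93.2, 71.4, 63.6 and 54.4 CPM, ordered downward in replicate 2 alone, whose lowest bin also had the highest level of fibroblast markers in CPM. Also not called were Sec61a1 (0.16), Tram1 (0.11), Ssr1 (-0.08), Ssr3 (0.05), Stt3a (0.09) and Tmed2 (0.17).

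**Figure D5:**
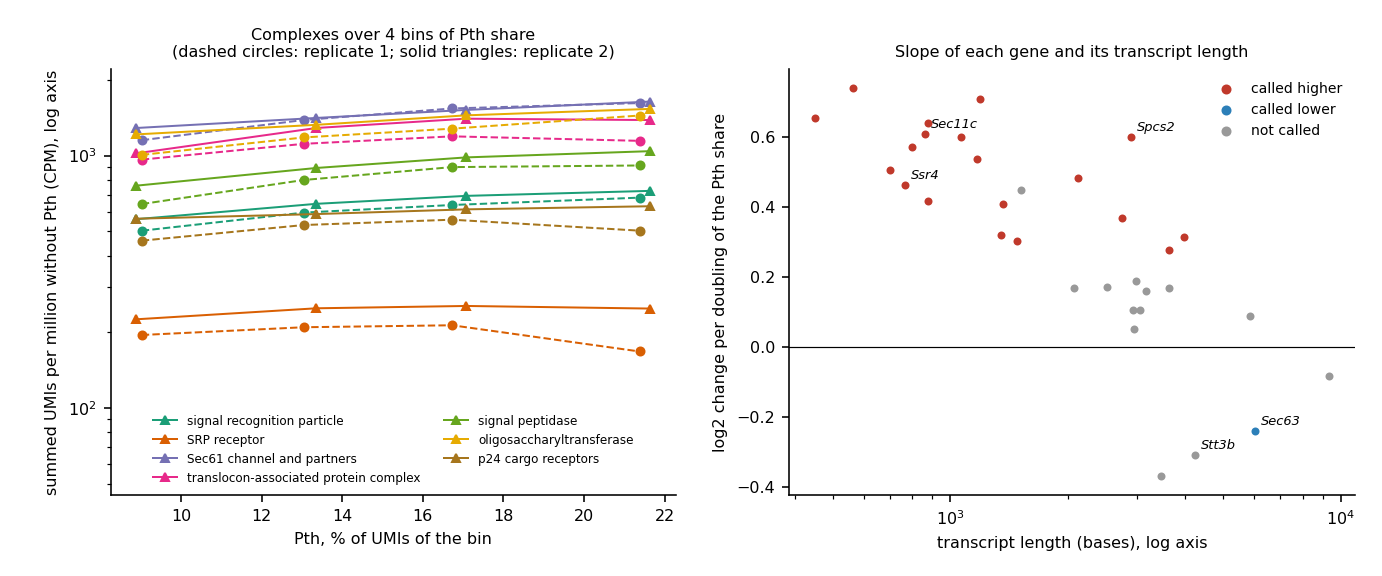
Left, summed CPM without Pth (log axis) of each group of genes in 4 bins of the Pth share, with dashed circles for replicate 1 and solid triangles for replicate 2. Right, the slope of each gene, as log2 change per doubling of the Pth share, against its transcript length in bases (log axis), with genes called higher in red, lower in blue and not called in grey: the 14 transcripts under 1500 bases are all red.

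The slopes ordered with transcript length. Across the 33 genes the Spearman correlation of slope and transcript length was -0.83, and across the 12106 tested genes with a known length (90.3%) it was -0.49. All 14 genes of the set with transcripts under 1500 bases rose, where 45.7% of all such genes did. Of the 19 longer ones 5 rose (Srp72, Sec62, Spcs2, Ddost and Rpn2), where 6.27% of all longer genes did. The share that rose was above that of all genes on both sides of this length, but lengths were not matched within either side. The part of length in the slopes was not tested. Other quantities also moved over the bins. The share of Malat1, a nuclear RNA, went from 7.64 to 5.91% of UMIs in replicate 1 and from 6.54 to 5.99% in replicate 2, and the share of ribosomal protein genes from 8.50 to 10.5% and from 9.58 to 11.2%. Their part in the slopes was not tested. Median UMIs per barcode had no such order over the bins (25645, 38669.5, 37070 and 28873 in replicate 1, and 26904, 31104, 30575.5 and 28625 in replicate 2). Across single barcodes, however, both shares fell with the UMIs other than Pth, more so in replicate 2. The Spearman correlations were -0.039 and -0.240 for the set's share and -0.067 and -0.185 for the Pth share. The summed 134 markers of other cell types stood at 5774 CPM in the lowest bin of replicate 2 and at 2394 to 2667 in its other bins, with fibroblast markers at 2478 and at 32.1 to 178, and in replicate 1 all bins had 2359 to 2529. Without the 5 to 10% bin, 18 genes rose and 2 fell, with a median of 0.32, against 1539 and 1363 of 14200 over all genes. Among barcodes of middle UMI count 13 rose and 0 fell by edgeR, against 645 and 525 of 11680 over all genes. The calls of Srp19, Srp72, Sec62, Sec63, Sec11a, Ddost and Tmed10 were lost there. After thinning 16 rose and 0 fell by edgeR, against 986 and 807 of 11734 over all genes. Rpn1 was among those that rose by edgeR (0.36, adjusted p = 0.0275), and the calls of Srp19, Srp72, Sec63, Sec11a and Tmed10 were lost. The adjusted p of Sec63 in those fits was 0.219 and 0.116.

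Against the mean of the other classes, length ordered the genes less. The correlation of the log2 fold change with transcript length was -0.42 over the set and -0.05 over all genes, and with protein length -0.17 and -0.04. For transcript length it differed by class, with 0.00635 against T cells, -0.23 against macrophages, -0.51 against fibroblasts and -0.60 against endothelial cells. These are descriptions, since genes are not replicates.

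Other genes of the route were read from 6 lists in the same fit, to be set beside the 35.4% higher and 20.3% lower of all genes. Levels here are the mean ± SD of 2 libraries, first in parathyroid barcodes and then over the other classes. Of the translocon partners and signal peptide peptidase genes, 6 of 13 tested were higher and 1 lower. Sil1, the nucleotide exchange factor of BiP, was at 89.4 ± 0.376 CPM against 33.7 ± 0.0842 (log2 fold change 1.59, SE 0.14, adjusted p = 2.09e-06), and Tmem147, a partner of translocon-bound ribosomes, was at 130.0 ± 18.4 CPM against 56.0 ± 6.44 (log2 fold change 1.48, SE 0.13, adjusted p = 2.93e-06). Tram2 was lower, at 5.07 ± 2.22 CPM against 13.9 ± 1.62 (log2 fold change -1.09, SE 0.32, adjusted p = 0.012), and Dnajc1 was not called, at 198 ± 4.38 CPM against 202 ± 21.5 (log2 fold change 0.20, SE 0.20, adjusted p = 0.434). The ER membrane protein complex, which inserts membrane proteins, had 5 of 10 genes higher and 1 lower, with log2 fold changes of 1.29 for Emc9 and 0.81 for Emc2, -0.42 for Emc10, which was lower, and 0.30 for Emc7, which was not called. In tail-anchored protein insertion 6 of 7 were higher and 0 lower by edgeR. Wrb, a subunit of the insertion receptor, was at 10.8 ± 1.14 CPM against 3.68 ± 0.998 (log2 fold change 1.77, SE 0.31, adjusted p = 0.000425), Ubl4a had a log2 fold change of 0.92, and Bag6 was not called, at -0.06.

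Of the 27 genes that build the dolichol-linked glycan or accompany oligosaccharyltransferase, 10 were higher and 1 lower. The higher share was near the 35.4% of all genes, and the lower one was under their 20.3%. Tusc3, an oxidoreductase subunit of the STT3B complex, was at 114 ± 1.18 CPM against 65.0 ± 5.05 (log2 fold change 1.07, SE 0.16, adjusted p = 0.000126), higher, whereas Stt3b was lower. Alg13 was higher (1.37 on the log2 scale), Srd5a3, which makes dolichol, was lower (-1.14), and Dpm3 was not called (0.34). Early N-glycan trimming had 2 of 9 higher and 2 lower. Prkcsh, the beta subunit of glucosidase II, was at 82.1 ± 11.2 CPM against 33.6 ± 9.91 (log2 fold change 1.47, SE 0.14, adjusted p = 4.28e-06), and Ganab, the alpha subunit, at 41.0 ± 1.93 CPM against 35.4 ± 9.68 (log2 fold change 0.40, SE 0.15, adjusted p = 0.0394). Man1a, a Golgi mannosidase, was far lower, at 4.28 ± 1.33 CPM against 437 ± 81.2 (log2 fold change -6.24, SE 0.32, adjusted p = 3.49e-08), Man1b1 was lower (-0.59), and Calr was not called (0.02). Of 22 other p24 and COPII export genes 10 were higher and 4 lower. Lman1, a cargo receptor for glycoproteins, was at 163 ± 16.3 CPM against 91.3 ± 18.3 (log2 fold change 1.23, SE 0.13, adjusted p = 8.95e-06), and Sar1b, the GTPase that starts the COPII coat, at 111 ± 6.19 CPM against 51.6 ± 5.06 (log2 fold change 1.27, SE 0.16, adjusted p = 3.15e-05). Tmed5, a further p24 protein, was lower, at 54.8 ± 2.53 CPM against 174 ± 15.9 (log2 fold change -1.46, SE 0.15, adjusted p = 8.77e-06), as was Sec24b (-0.59), and Sec24d was not called (-0.53).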

How the data were processed

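Each library held 10x 3′ UMI counts per gene and barcode, deposited by the authors and made with Cell Ranger 7.0.0 on mm10, per the submitters' processing notes. Barcode calling is not described in the labels. The 2 libraries held 1406 and 3518 barcodes with 41517620 and 88283761 UMIs. Barcodes with under 500 genes, at least 15% mitochondrial or 5% haemoglobin UMIs (147 and 199) and predicted doublets (23 and 6) were removed. The doublet caller marked 0.171% in replicate 2, too few to have worked there. Barcodes with Pth under 1% were clustered (scanpy 1.11.5, 2000 variable genes, 30 components, 15 neighbours, Leiden resolution 1) and named from 164 markers of 24 types. Counts were summed per class and library and tested with edgeR 4.0.16 (TMM, filterByExpr, quasi-likelihood, library as block, 4 residual degrees of freedom for classes and 5 for the Pth share), with Benjamini-Hochberg adjustment over all genes tested and 0.05 as the threshold, and checked with DESeq2 1.42.0. The block follows from the design, since all classes of a library came from the same mice. The fits were also run on simulated counts, with changes put in evenly in both directions and no library effect. That run does not bear on the scaling of the real data. UMIs of 3′ ends are not compared between genes as levels. Gene positions and promoters are GRCm38. All members were named, and of other lists the 2 called genes of smallest p in each direction and the uncalled gene of highest CPM. Malat1 and the genes that overlap or copy a member were added afterwards. The members and lists were chosen with earlier results of these data known.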

Additional observations from a re-analysis of the deposited data

How the results depend on the processing

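Alternatives were DESeq2 size factors, DESeq2's test, no count filter, no replicate block, other Pth limits, clusterings, doublet handling and totals, and for the Pth share other bins, a middle UMI range and thinning. Leaving out parathyroid barcodes of high UMI count or the 5 to 10% bin was chosen after seeing the data. No called gene changed sign in either library alone (22 of 22 against the mean, 20 of 20 over the Pth share). The calls came from fits of these same 2 libraries, so this outcome was close to fixed in advance. It is not a replication. Values from a library alone came from no edgeR fit. They are CPM differences on a log scale without TMM scaling, set against the median of all genes. Over the Pth share they compare the highest with the lowest bin only. They are therefore another estimate than the edgeR values beside them, and a shift between them is not an effect of the library left out alone.

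Against the mean, 15 genes were higher and 2 lower without the replicate block (all genes 4400 and 2470 of 13466), where Srp9, Srprb, Sec63, Ddost and Ostc lost their calls. Without Pth, tdTomato and Chga 17 were higher and 2 lower (all genes 4654 and 2898 of 13665). The count of lower genes was 1 with no filter, with resolution 2 and with the marker gate (all genes 2500 of 24868, 2613 of 13263 and 2782 of 13221). The members' median less that of all genes, 0.29, was 0.36 in DESeq2's test and 0.0335 with no filter (where the median of all genes was 0.54). It was 0.47 with all other barcodes as 1 class, 0.23 with resolution 2 and 0.20 with the marker gate. With 1 library left out, the CPM differences gave 0.33 to 0.39.

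Against T cells 10 genes were higher with DESeq2 size factors (all genes 3318 of 13466). The same difference of medians, 0.05, was 0.26 in DESeq2's test and -0.49 with no filter. With 1 library left out, the CPM differences gave -0.02 to 0.12. Against endothelial cells 0 genes were lower with no filter and 1 without the replicate block (all genes 3633 of 24868 and 3261 of 13466). There 0.51 became 0.23 with no filter, and the CPM differences gave 0.38 to 0.51 with 1 library left out. Against macrophages 9 genes were higher without the replicate block (all genes 3796 of 13466). There 0.34 became 0.38 in DESeq2's test and -0.0817 with no filter, which adds many genes of low count. Against fibroblasts the CPM differences gave a difference of medians of -0.12 to 0.17 with 1 library left out.

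Over the Pth share the count of lower genes, 1, was 3 without TMM, 2 with quartiles or without the 5 to 10% bin, and 0 with no filter, without the replicate block, in the middle UMI range and after thinning. Over all genes the lower ones were, in that order, 2241 of 13407, 2069 of 14156, 1363 of 14200, 2245 of 23272, 838 of 12765, 525 of 11680 and 807 of 11734. The difference of medians, 0.35, was 0.40 with no filter, 0.45 with quartiles and 0.33 in the middle UMI range. With 1 library left out, the CPM differences gave 0.32 to 0.34. In the other lists 9 lower genes became 5 with no filter (all genes 2732 of 13466 and 2500 of 24868). The correlation with protein length, -0.17, was 0.15 against T cells, 0.000668 against macrophages, -0.38 against endothelial cells and -0.31 against fibroblasts. With 1 library left out, the CPM differences gave -0.17 to -0.15. Where not named, the cause was not tested. Of the 5 classes compared, T cells had the fewest UMIs (432245 and 454314).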
